A study of Mus musculus with 6 samples.

Results

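The genes described here encode the proteins of the cytosolic ribosome. They were chosen by name, as every row of the gene tables called Rpl or Rps with a number and at most 1 of the letters a, x, l or y after it, together with Rplp0, Rplp1, Rplp2 and Rpsa, and without the copies whose names end in -ps. This gave 83 of the 53715 genes in the tables, 51 of the large subunit and 32 of the small subunit. Of these, 78 had enough exon reads to be tested, 47 of the large and 31 of the small subunit. The 5 that did not were Rpl10l, Rpl3l, Rpl6l, Rpl32l and Rps4l. Rps3a1 and Fau, which also encode ribosomal proteins, do not carry such a name and are given apart from the members.

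The ribosome is built from a small subunit, which decodes the messenger RNA, and a large subunit, which joins the amino acids. Nearly every protein of it is present as a single copy in each particle, and its genes are expressed in all cells. Their messengers begin with a C that is followed by a run of pyrimidines, the 5′ terminal oligopyrimidine tract through which mTOR signalling controls their translation, and their introns often carry small nucleolar RNAs (snoRNAs). Bone-forming osteoblasts secrete large amounts of collagen and other matrix proteins, and therefore rely on a high capacity for protein synthesis.

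The libraries came from calvarial cells of newborn C57BL/6J mice that were cultured in osteogenic medium for 7 days, which drives them towards osteoblasts. There were 3 Wild-type and 3 Fam102a KO libraries, and in the KO mice exons 2 and 3 of Fam102a are deleted throughout the body, through Actb-Cre and a floxed allele. Fam102a was studied for its part in osteoblast differentiation, and the comparison of the genotypes asks which messengers differ without it. The labels do not say what a replicate stands for, and the study describes its experiments as independent only in general, without naming these libraries. The p-values measure the spread between these libraries, which may be technical.

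The starts of transcription are shown first because the tract is known for these messengers and their selection did not use it. It stood at a listed start in 14 of 61 genes, so most of the listed starts lacked it. RefSeq lists 73 promoters for 61 of the 83 members (GRCm38.p6, the same assembly as mm10, 250 bases before to 50 after each start). The first base was a C followed by at least 4 bases that were each C or T in 14 of the 73, or 19.2%, against 2.51% of all 32851 promoters and 0 of 68 genes of mitochondrial ribosomal proteins. A longer tract, a C followed by at least 7 pyrimidines anywhere within 25 bases of the start, was found on the sense strand in 46.6% of the promoters of members and 15.5% of all promoters. Below are 30 bases around the listed start, from 10 before it, with the tract that begins at the start in capitals. The first 6 carry the tract, and the last 4, Rplp0 and 3 paralogues, have a listed start without it, for Rps27l the first of 2.
Rpl35, chr2:39005112-39005141, minus strand: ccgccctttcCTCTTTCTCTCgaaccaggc
Rps6, chr4:86857348-86857377, minus strand: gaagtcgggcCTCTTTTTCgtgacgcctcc
Rpl38, chr11:114668570-114668599, plus strand: aagcctcgttCTTTCCCCgttctcttcggt
Rpl28, chr7:4792955-4792984, plus strand: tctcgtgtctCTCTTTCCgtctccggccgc
Rpl15, chr14:18270967-18270996, minus strand: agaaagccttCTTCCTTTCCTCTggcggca
Rps27, chr3:90213629-90213658, minus strand: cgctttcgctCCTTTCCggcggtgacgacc
Rps27l, chr9:66946076-66946105, plus strand: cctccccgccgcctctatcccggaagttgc
Rpl39, chrX:37085203-37085232, minus strand: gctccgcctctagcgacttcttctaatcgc
Rpl39l, chr16:10170218-10170247, plus strand: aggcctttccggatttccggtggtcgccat
Rplp0, chr5:115559457-115559486, plus strand: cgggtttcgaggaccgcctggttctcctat
The length of the tract ranged from 7 bases in Rps27 to 13 bases in Rpl15 among the 6 shown. The 13 tested members with such a start had a median Wild-type level of 90.2 RPKM, a read count scaled by exon length and by the gene reads of the library, against 104 RPKM for the 45 tested members whose listed starts lacked it. A tract in these windows is a match of letters, and no match says only that a listed start does not begin with one.

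Each library held 5801394 to 9928262 reads on exons, of which 81.1 to 83.3% were placed uniquely. A run label is attached to replicates 2 and 3 in each genotype and is missing from replicate 1. Fam102a itself had 124, 206 and 207 exon reads in Wild-type and 123, 174 and 157 in Fam102a KO (log2 fold change −0.34, edgeR adjusted p = 0.667), and since the deletion removes only exons 2 and 3, the count over the whole gene does not check the genotype labels. Of 10 osteoblast markers, 7 had more than 3 reads in every library. The list summed to 36640 to 47100 CPM (counts scaled to library size) in Wild-type and 40640 to 42790 CPM in Fam102a KO. Most of this came from Col1a2 and Col1a1, with means of 18180 and 14050 CPM in Wild-type. The sum therefore says little about the other osteoblast markers. The 6 macrophage markers summed to 1535 to 4261 CPM and 731 to 3267 CPM, and the 5 chondrocyte markers to 4226 to 5403 CPM and 2094 to 4517 CPM. Summed markers reached at most 1.121 CPM for erythroid, 22.8 CPM for endothelial, 34.2 CPM for muscle, 17.8 CPM for adipocyte and 56.4 CPM for Schwann cells, with Hba-a1 and Hba-a2 at 0. In such bulk samples, fewer cells of a type and less RNA per cell cannot be told apart.

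The members together took about 5% of all exon reads in both genotypes. Their share was 5.15, 4.996 and 5.08% in the Wild-type libraries and 5.18, 4.95 and 4.81% in the Fam102a KO libraries, which is 5.08% ± 0.0778 against 4.98% ± 0.188 (SD, n = 3 each). The widest 95% Wilson interval of a library had a half-width of 0.0180 percentage points, which covers counting error only. The large subunit gave 2.76% ± 0.110 and 2.70% ± 0.0840, and the small subunit 2.31% ± 0.161 and 2.28% ± 0.247 (SD, n = 3 each). The ranges of the genotypes overlapped for each of these shares. By comparison, the 77 genes of mitochondrial ribosomal proteins took 0.191% ± 0.0126 and 0.183% ± 0.00585 (SD, n = 3 each).

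Per length of exon, ribosomal protein genes stood near the top of all genes. Their median level in Wild-type was 119 RPKM, and only 1.21% of the 13858 genes tested lay above it. The middle of the list was narrow, with quartiles of 77.9 and 195 RPKM, a 2.50-fold span, whereas the highest and the lowest of the 78 tested members differed 194-fold. These are levels as deposited. They depend on the exon length the annotation gives each gene, and on how reads that match several genes were divided. In the order of Wild-type levels, 67 of the 77 pairs of neighbours had overlapping libraries and therefore did not differ beyond their spread.

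**Figure D1:**
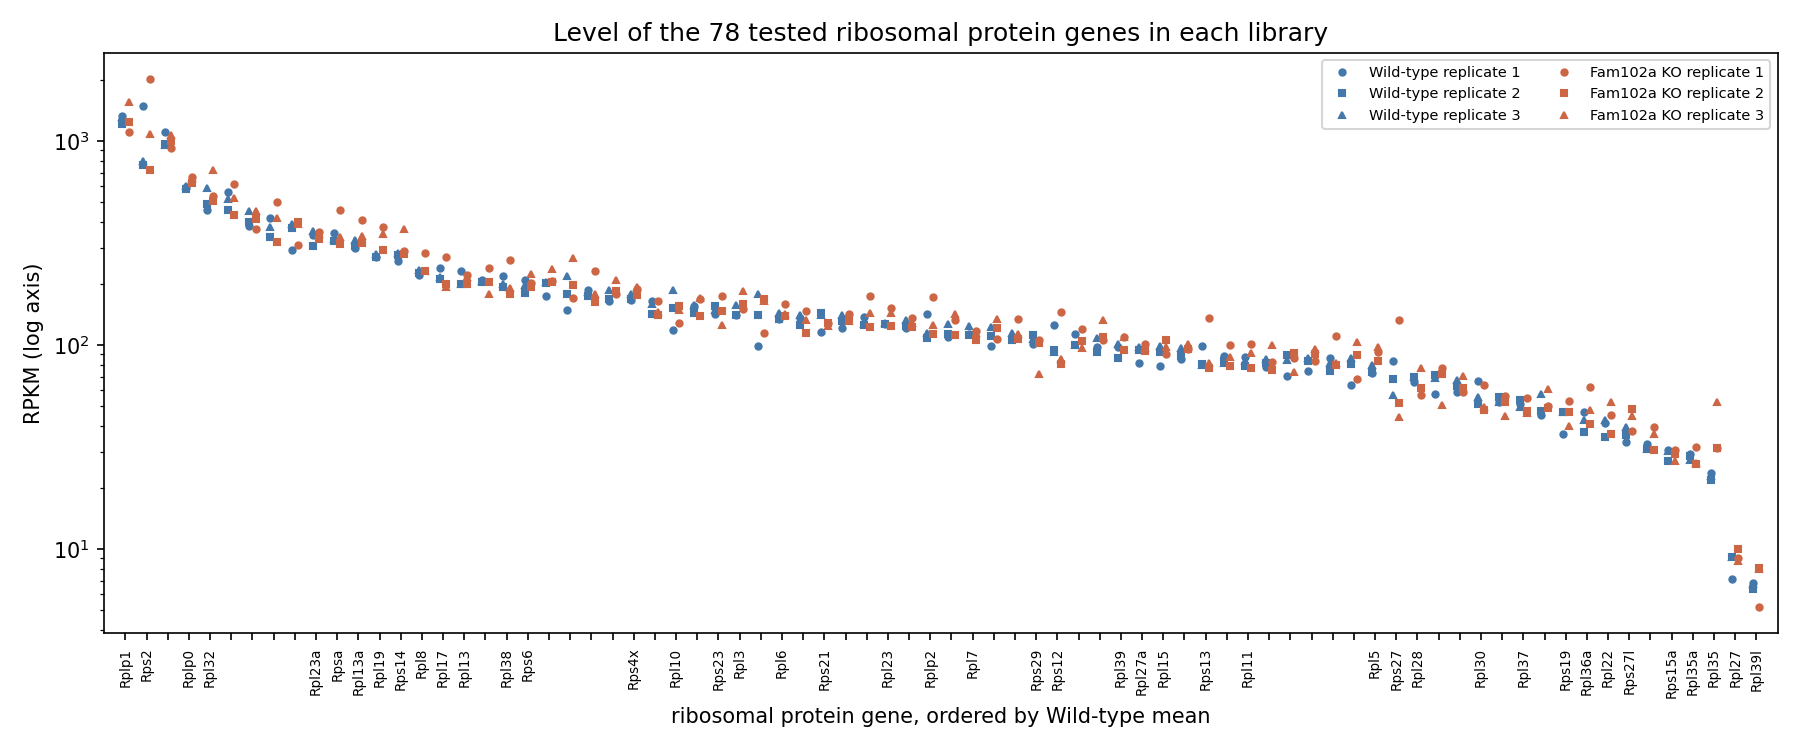
Level of each of the 78 tested members in each library, in RPKM on a log axis, ordered from left to right by the Wild-type mean, with names on those described in the text (blue, Wild-type; orange, Fam102a KO; circle, square and triangle, replicates 1, 2 and 3). The quartiles are 77.9 and 195 RPKM, Rpl27 and Rpl39l lie far below the rest, and Rps2 and Rps27 are high in replicate 1 of the KO.

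At the top of this order was Rplp1, one of the acidic proteins of the stalk that recruits the factors of translation to the large subunit. It had 1329, 1213 and 1316 RPKM in Wild-type and 1102, 1239 and 1556 RPKM in Fam102a KO. Rps2, of the small subunit, followed with a mean of 1015 RPKM ± 410 in Wild-type and 1268 RPKM ± 664 in Fam102a KO (SD, n = 3 each). Rplp0, the scaffold of the stalk, reached 593 RPKM ± 8.41 in Wild-type and 647 RPKM ± 24.5 in Fam102a KO (SD, n = 3 each), and Rpl32 513 RPKM ± 67.5 and 588 RPKM ± 114 (SD, n = 3 each). At the other end, the lowest tested members were Rpl39l at 6.63 RPKM ± 0.252, Rpl27 at 8.43 RPKM ± 1.15 and Rpl35 at 22.7 RPKM ± 0.873 in Wild-type (SD, n = 3 each). Rpl35a and Rps15a followed at 28.4 and 29.2 RPKM.

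The 5 untested members had almost no reads. Rpl10l had 6 exon reads and Rpl3l 9 over all 6 libraries. Rpl6l, Rpl32l and Rps4l are annotated as processed pseudogenes in GENCODE M21, the tables list no exon for them, and their exon reads are 0 in each library. Without a listed exon, an exon count of 0 is fixed in advance and sets no bound. Their gene reads over all libraries were 5 for Rpl6l, all outside exons, and 0 for Rpl32l and Rps4l. For a gene with a listed exon, a count of 0 allows up to 3 reads, which is 0.302 to 0.517 CPM in these libraries.

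Most exon reads of the members could not be placed uniquely. Over all members, 29.96, 32.4 and 35.3% of the exon reads were placed uniquely in Wild-type and 26.3, 34.1 and 34.9% in Fam102a KO (widest 95% Wilson half-width 0.164 percentage points). For the median member the figure was 28.6%, against 97.1% for the median of all genes tested. In 54 of the 78 tested members, or 69.2%, fewer than 50% of the exon reads were unique, as in 14.3% of all genes tested. Replicate 1 had the lowest figure in each genotype.

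Single members covered the whole range. Rpl13, which is mutated in a human skeletal dysplasia, had 0.328% of its exon reads placed uniquely, Rpl17 0.402% and Rps6, the target of S6 kinase, 0.431%. Rps23 followed with 0.818% and Rpl23a with 1.01%. At the other end were Rpl39l with 99.7%, Rps27l with 95.4%, Rpl8 with 95.2% and Rpl22 with 90.5%.

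Much of the sequence of these messengers recurs elsewhere in the annotation. Of the 50-base windows in the transcripts of Rps6, 43.8% also occur in the pseudogene Rps6-ps4, and 36.9% of those of Rpl17 in Rpl17-ps8. Rpl39l shares no window with another gene. Across the 78 tested members, the share of windows found in another gene had a median of 20.8% and a range of 0 to 81.1%, and it correlated with the share of unique reads with r = −0.47. This r is a description across genes that share their libraries. Rpl13, with the lowest share of unique reads, had 24.4% of its windows in other genes.

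**Figure D2:**
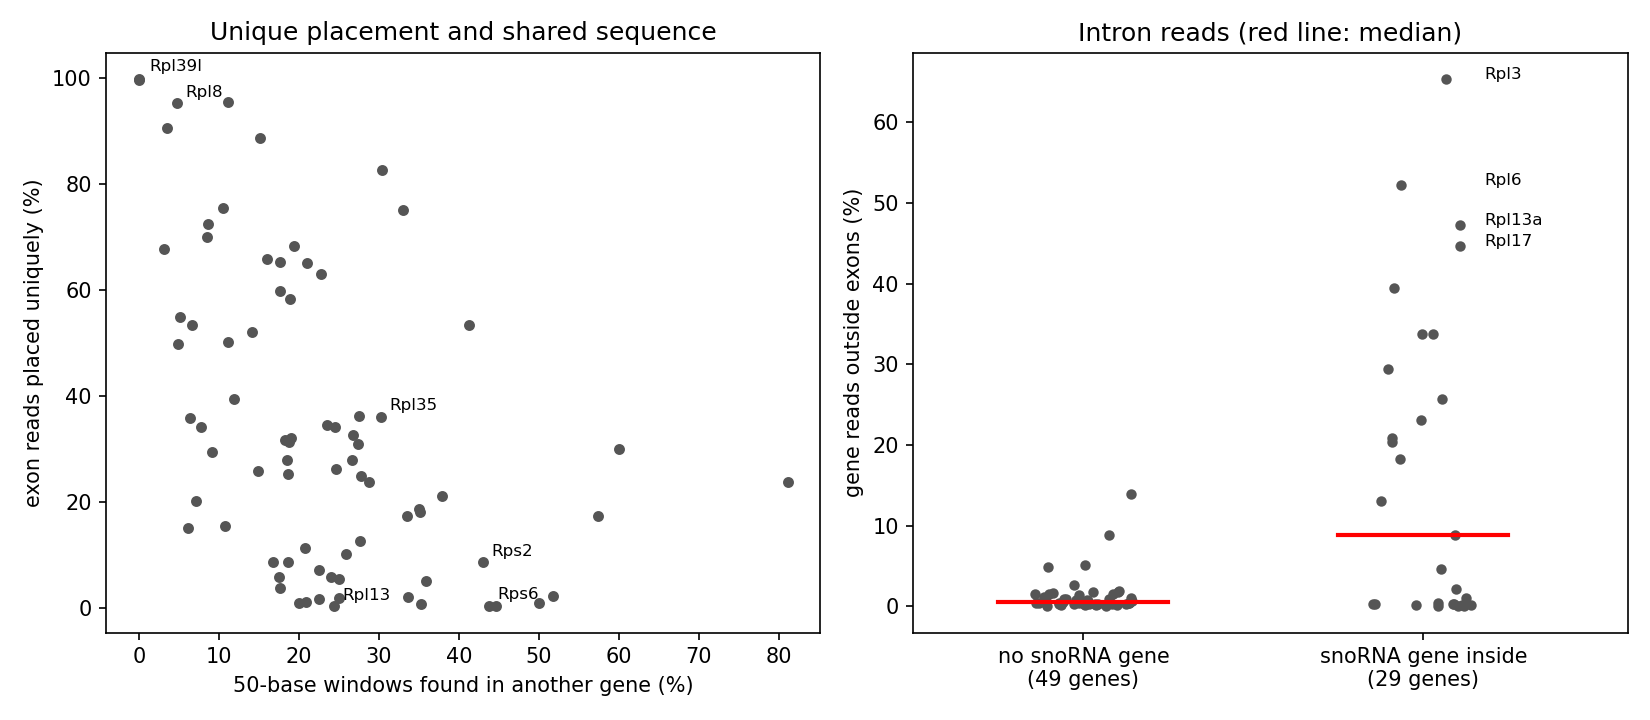
Left, the share of exon reads placed uniquely (%) against the share of 50-base transcript windows found in another gene (%), 1 point for each of the 78 tested members over all 6 libraries (r = −0.47). Right, the share of gene reads outside exons (%) for members without and with an annotated snoRNA gene inside them, with points spread sideways for sight and the medians of 0.544% and 8.82% as red lines.

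Between the genotypes, no ribosomal protein gene was called. On exon reads, edgeR's quasi-likelihood test with the Benjamini-Hochberg adjustment over all genes called 0 of 78 members at an adjusted p under 0.05, where it called 0.0794% of all genes tested, and DESeq2, with 0.901% of all genes, and limma on log2(RPKM + 0.1), with 0.0505%, called 0 members as well. At an unadjusted p under 0.05, 1 member was higher in Fam102a KO and 0 were lower, against 3.41% higher and 3.4% lower of all genes. The members' log2 fold changes (Fam102a KO over Wild-type) had a median of −0.03, quartiles of −0.11 and 0.03 and a median standard error of 0.122. Of the 78, 74 or 94.9% lay within 0.2 of zero on the log2 scale, against 63.5% of all genes and 78.8% of the 3465 genes with the highest counts, whose median standard error of 0.121 is close to that of the members. On uniquely placed reads it was 61 of 78 members, or 78.2%, against 64.8% of all genes and 77.9% of the genes with the highest counts. On these reads the members were thus about as spread as the genes with the highest counts. On exon reads, the standard errors of the members were also smaller than those of all genes, whose median was 0.180. The members' fold changes on exon reads were positive in 29 and negative in 49, where those of all genes were positive in 7067 and negative in 6791.

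The direction of this small shift depended on the scale. On the deposited RPKM, which are scaled by all gene reads, intron reads included, the median of all genes was 0.12 and that of the members 0.09 by limma on log2(RPKM + 0.1), with 59 of 78 positive. At an unadjusted p under 0.05, 3 members were higher on that scale, or 3.85%, against 7.13% of all genes. By the median, the members thus lay slightly lower than all genes on both scales. By sign they did not on the RPKM scale, where 10049 of all 13858 genes were positive. Of the gene reads, 52.2 to 54.5% lay in introns in Wild-type and 45.8 to 53.2% in Fam102a KO, and Rn7s1, a 7SL RNA, 15.8 to 16.6% and 9.66 to 13.3%. Their part in the shift was not tested.

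Uniquely placed exon reads gave no call either. Of 78 members, 0 passed an adjusted p under 0.05, as 0.0712% of all genes did. At an unadjusted p under 0.05, Rpl13a was higher, as 3.42% of all genes were, and Rps29 lower, as 3.6% were. The members' median log2 fold change was −0.07, and 58 of 78 were lower. Of all 12642 genes tested on these reads, 6286 were lower, with a median of 0.001. Because the members share their libraries, such counts of direction are a description only. Over the 24 members with at least 50% unique reads, which rest least on shared sequence, 18 were lower and 6 higher on exon reads, with a median of −0.04. Across members, the log2 fold changes from both counts correlated with r = 0.66, again over genes that share libraries, and 42 were lower and 13 higher by both.

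**Figure D3:**
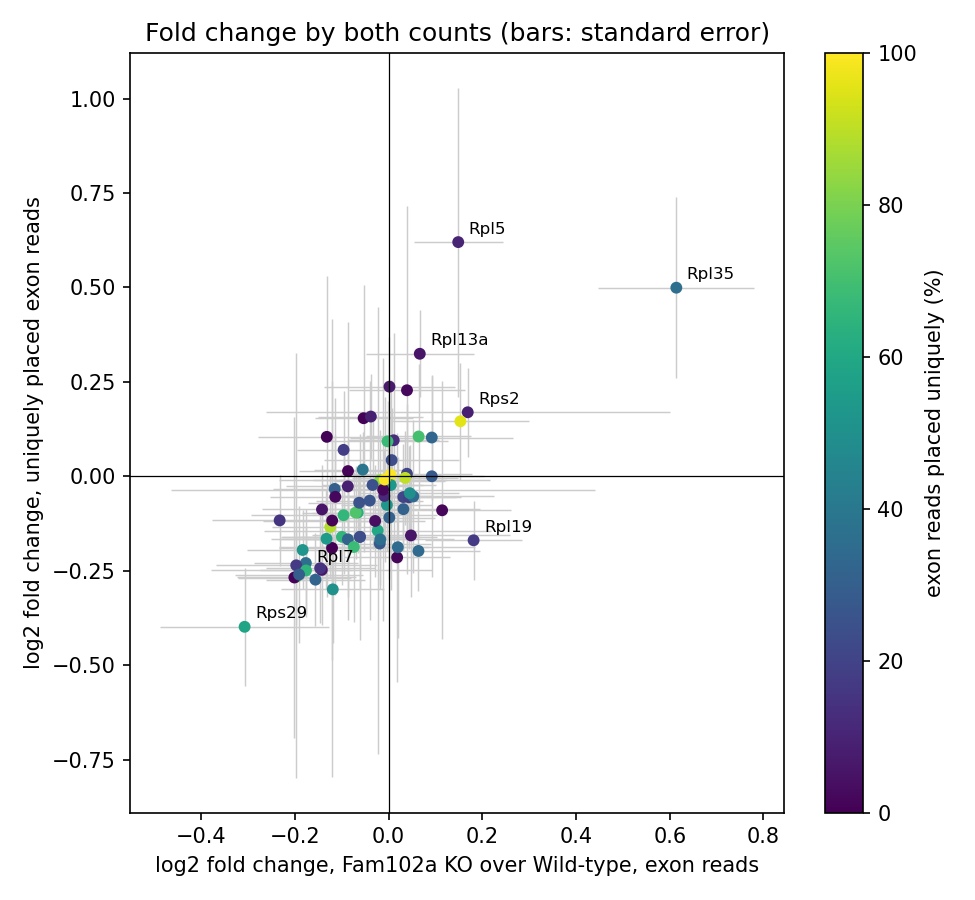
Log2 fold change of Fam102a KO over Wild-type from all exon reads (horizontal) against that from uniquely placed exon reads (vertical) for the 78 tested members, with standard errors as grey bars and the share of unique reads as colour. The points lie around zero with medians of −0.03 and −0.07, Rpl35 is the furthest right at 0.61 with 0.50 on unique reads, and Rpl5 is the highest on unique reads at 0.62.

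Few members had libraries that were fully apart by genotype. On exon reads, 3 were higher in every KO library (Rpl35, Rpl19 and Rpl5), where 6.05% of all genes were, and 2 were lower (Rpl7 and Rpl28), where 5.69% were. On unique reads, 2 were higher (Rpl13a and Rpl27a; 5.92% of all genes) and 5 lower (Rpl7, Rpl19, Rpl32, Rpl37 and Rps29; 5.96%). Rpl19 thus appeared among the higher genes by one count and among the lower by the other. These shares are near or below those of all genes, apart from the 6.41% of members that were lower on unique reads, which is also close.

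Rpl35, a protein of the large subunit near the exit of the nascent chain, was the member with the lowest p. It lies on chromosome 2 of mm10 from 39001580 to 39005624, and it had 356, 513 and 568 exon reads in Wild-type and 503, 824 and 1091 in Fam102a KO. Normalized for depth, these are 62.9, 59.4 and 58.3 CPM against 73.9, 84.0 and 118 CPM. Every KO library was above every Wild-type library, and replicate 3 of the KO was the highest. The log2 fold change was 0.61 (standard error 0.166, edgeR adjusted p = 0.401), and an exact permutation test gave p = 0.1, 2-sided, the smallest that 3 against 3 allows. Without the filter on low counts, edgeR called it (adjusted p = 9.0e-04). That setting called 326 of 29231 genes, where the main test called 11 of 13858. Over the alternatives its adjusted p ranged up to 0.9996 with a positive log2 fold change in each. Without Fam102a KO replicate 3, the log2 fold change was 0.39.

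Other counts of the same libraries differed in how far they separated the genotypes for Rpl35. Its RPKM did not overlap, with 23.5, 21.8 and 22.9 in Wild-type and 31.3, 31.3 and 52.3 in Fam102a KO. On exon-exon junction reads, the log2 fold change of Rpl35 was 0.51 (adjusted p = 0.569 from edgeR). Its uniquely placed reads were 29.3, 25.6 and 27.4 CPM in Wild-type and 24.7, 38.9 and 51.9 CPM in Fam102a KO, so that the groups overlapped (log2 fold change 0.50, adjusted p = 0.755 from edgeR, 2-sided exact permutation p = 0.4). Gm2000, a gene on chromosome 1 (156366040 to 156366484) that holds 28.3% of the 50-base windows of Rpl35, had 997, 1776 and 1825 exon reads in Wild-type and 1538, 1860 and 1318 in Fam102a KO, 0 of them unique. The reads of Rpl35 and Gm2000 together, a sum chosen after the values were seen, came to 239, 265 and 246 CPM in Wild-type and 299.7, 273 and 260.5 CPM in Fam102a KO. These sums overlapped between the genotypes, with a log2 ratio of means of 0.15 (2-sided exact permutation test, p = 0.2). Gm2000 itself had a log2 fold change of −0.03 and 9314 exon reads over the 6 libraries, against 3855 of Rpl35. Adding it therefore lowers the ratio whether or not reads were misplaced, and the sum does not test the difference in Rpl35.

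Rps29, a small protein in the head of the small subunit, was the lowest in log2 fold change. It had 152, 170 and 152 CPM of exon reads in Wild-type and 139.5, 153 and 91.2 CPM in Fam102a KO. The groups overlapped, and replicate 3 of the KO stood lowest (log2 fold change −0.31, standard error 0.180, adjusted p = 0.877 from edgeR). Without that library, the log2 fold change was −0.12. With uniquely placed reads it had 122, 115 and 110 CPM against 95, 102 and 66.2 CPM. Here the groups did not overlap (log2 fold change −0.40, adjusted p = 0.639 from edgeR, 2-sided exact permutation p = 0.1). With the replicate number as a block, Rps29 and Rpl30 were lower at an unadjusted p under 0.05 on exon reads, and Rpl35 was the 1 higher member, where 4.7% of all genes were lower and 4.84% higher. The block gave 0 calls of members and calls of 0.303% of all genes at an adjusted p under 0.05 in edgeR.

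Rpl13a, of the large subunit, was the member at the lowest p on unique reads. It had 97.3, 83.8 and 88.8 CPM of uniquely placed reads in Wild-type and 119.7, 100.3 and 117.6 CPM in Fam102a KO (log2 fold change 0.32, adjusted p = 0.569 from edgeR, 2-sided exact permutation p = 0.1). All 3 KO libraries were above the Wild-type ones. On all exon reads, of which only 5.81% are unique for this gene, the values were 1363, 1421 and 1422 CPM against 1637, 1449 and 1320 CPM and overlapped (log2 fold change 0.07).

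Rpl5 and Rpl11 bind the 5S ribosomal RNA and, outside the ribosome, Mdm2, the ligase that limits p53. Rpl5 had 615, 632 and 644 CPM in Wild-type and 690.2, 709 and 697 CPM in Fam102a KO (log2 fold change 0.15, adjusted p = 0.893 from edgeR). Its KO libraries were all above the Wild-type ones, by a small step. Rpl11 had 509.7, 469 and 461 CPM against 515, 449 and 447 CPM, which overlapped (log2 fold change −0.03). By uniquely placed reads, 10.1% of its exon reads, Rpl5 had 43.4, 64.1 and 74.0 CPM in Wild-type and 44.97, 121.6 and 112.8 CPM in Fam102a KO, which overlapped, with replicate 1 lowest in both genotypes (log2 fold change 0.62, adjusted p = 0.930 from edgeR). On exon-exon junction reads, the log2 fold change of Rpl5 was 0.01.

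Among the other lower members, Rpl7, of the large subunit, had 659, 658 and 682 CPM in Wild-type and 598, 611 and 559 CPM in Fam102a KO (log2 fold change −0.18, adjusted p = 0.863 from edgeR). Its libraries did not overlap by either count. Rpl28 had 262, 283 and 263 CPM against 199.5, 244 and 259 CPM (log2 fold change −0.20). Rpl30 and Rps21 had log2 fold changes of −0.23 and −0.20, and their groups overlapped.

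**Figure D4:**
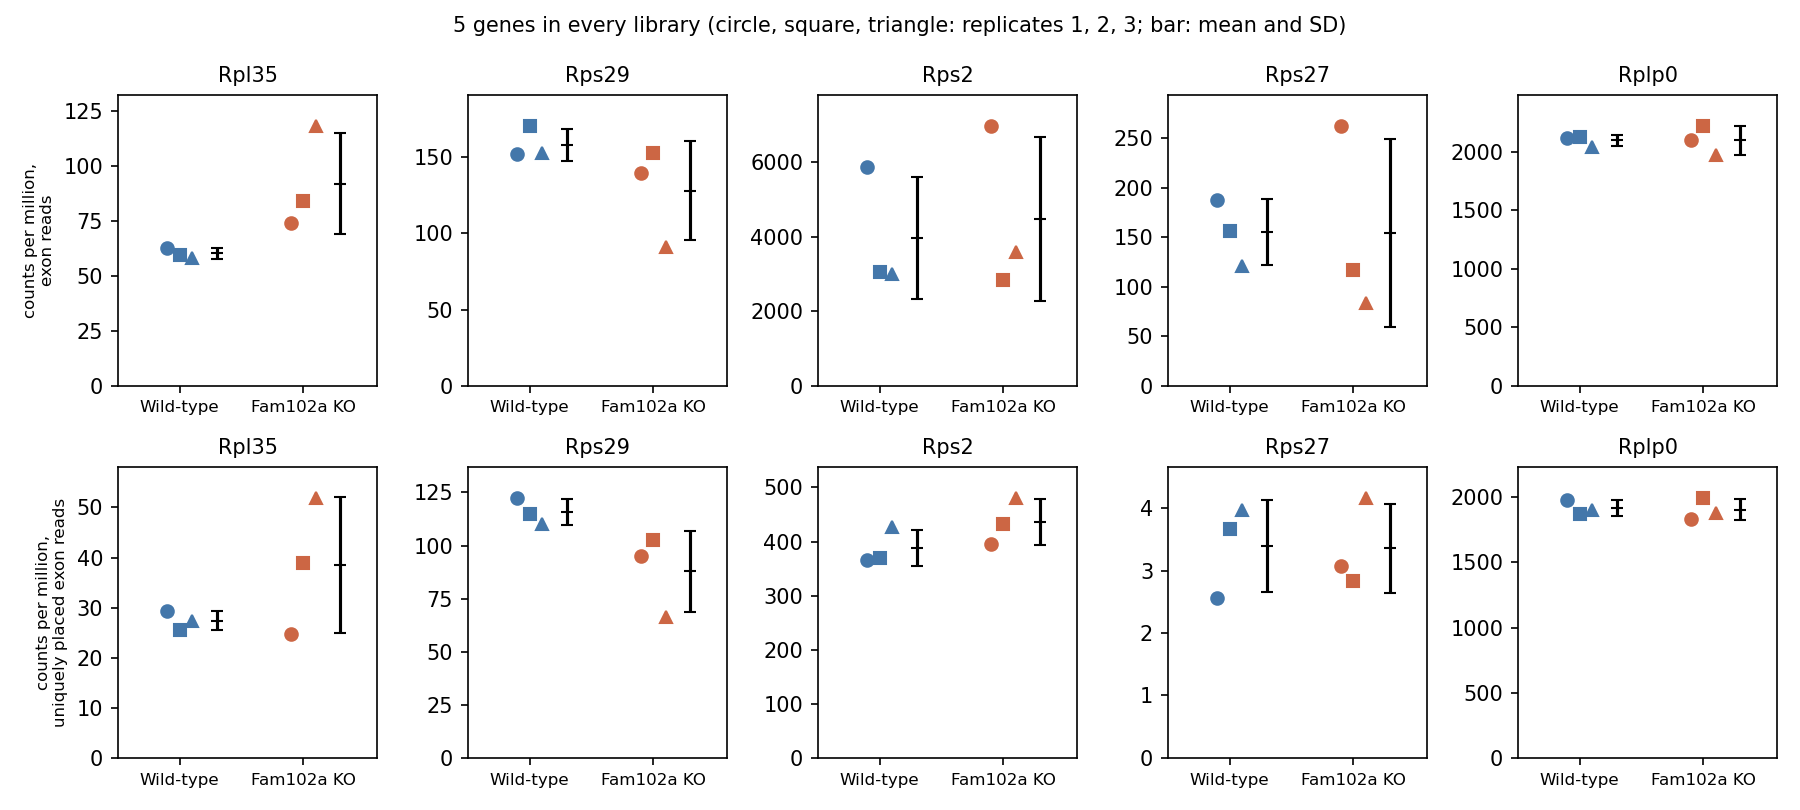
Normalized exon reads (top, CPM) and uniquely placed exon reads (bottom, CPM) of Rpl35, Rps29, Rps2, Rps27 and Rplp0 in each library, on axes that start at 0, with the mean and SD of 3 libraries as black bars. Rpl35 is higher in all KO libraries at the top only, Rps2 is high in replicate 1 of both genotypes at the top only, and Rplp0 overlaps between the genotypes in both.

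A wide spread among libraries of the same genotype marked a few members. Rps2 had 5869, 3051 and 3001 CPM of exon reads in Wild-type and 6968, 2838 and 3594 CPM in Fam102a KO. Replicate 1 was high in both genotypes, by 0.96 and 1.13 on the log2 scale over the mean of replicates 2 and 3. The uniquely placed reads of Rps2, 8.69% of its exon reads, were 366.5, 369.8 and 426 CPM against 396, 432 and 480.1 CPM, without that excess. The log2 fold change of Rps2 was 0.17, and it ranged from −0.30 without Fam102a KO replicate 1 to 0.56 without Wild-type replicate 1. In all, Rps2 took 11.1% of the members' exon reads in replicate 1 of Wild-type and 13.2% in replicate 1 of Fam102a KO, against 5.67 to 7.59% in the other libraries. Replicate 1 is also the one without the label of the sequencing run, and what that label has to do with these reads was not tested.

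In Fam102a KO replicate 1, Rps27, Rps12 and Rps13, all of the small subunit, also lay more than 0.5 on the log2 scale above replicates 2 and 3, for Rps12 at 560 against 353 and 315 CPM and for Rps13 at 695 against 450.1 and 399 CPM. Replicate 1 was the highest in Wild-type as well, by less than 0.5. There Rps12 had 550 against 421 and 385 CPM, and Rps13 572 against 479.5 and 441 CPM. Rps27 had 188, 157 and 122 CPM in Wild-type and 262, 117 and 84.1 CPM in Fam102a KO. Its groups overlapped widely, and without Fam102a KO replicate 1 its log2 fold change went from −0.01 to −0.63. Only 1.94% of the exon reads of Rps27 were unique. The median member differed little between replicate 1 and the others, by −0.01 in Wild-type and 0.04 in Fam102a KO on the log2 scale. Over all 6 libraries, the median coefficient of variation was 9.77% for the members, 15.7% for all genes and 10.5% for the 3465 genes with the highest counts, and 6 members exceeded 20%.

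With replicates 2 and 3 alone, which share the run label, 0 members and 0% of all genes passed an adjusted p under 0.05 in edgeR. At an unadjusted p under 0.05, Rpl35 was the only member (log2 fold change 0.78, adjusted p = 0.518), and it was higher, as 3.14% of all genes were. Replicate 1 alone holds 1 library of each genotype and is too few for a test.

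The genes of the stalk proteins and of the most studied single members had small log2 fold changes between the genotypes. Rplp0 had 2122, 2132 and 2047 CPM in Wild-type and 2099, 2221 and 1976 CPM in Fam102a KO, and its log2 fold change was 0.00. Rplp1 had a log2 fold change of −0.12 and Rplp2, its partner, of 0.03. Per length, Rplp1 lay 10.7-fold ± 1.14 above Rplp2 in Wild-type and 9.94-fold ± 3.11 in Fam102a KO (SD, n = 3 each). Rpsa, a small subunit protein that is also described as a laminin receptor, had a log2 fold change of 0.01, with 2411, 2250.0 and 2159 CPM in Wild-type and 2759, 2136 and 1956 CPM in Fam102a KO. Rps6 had −0.05, Rps19 and Rps14, which are linked to human anaemias, −0.02 and 0.06, Rpl38, which patterns the mouse skeleton, −0.09, and Rpl13 −0.12. For each of these the groups overlapped and the adjusted p was above 0.05 in edgeR.

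Rpl39l, Rpl3l, Rpl10l and Rps4l, paralogues of other members, were low or at 0 beside their partners. Rpl39l, a form of Rpl39 found in male germ cells of the mouse, had 69, 100 and 112 exon reads in Wild-type and 56, 142 and 112 in Fam102a KO. Per length, Rpl39 lay 14.4-fold ± 0.657 above it in Wild-type and 15.5-fold ± 4.89 in Fam102a KO (SD, n = 3 each). Neither differed between the genotypes beyond their spread (log2 fold changes −0.01 for Rpl39l and 0.00 for Rpl39). Rps27l, a paralogue of Rps27 that is induced by p53, was not low beside its partner. It had 36.4 RPKM ± 3.07 in Wild-type and 43.8 RPKM ± 5.57 in Fam102a KO, against 69.6 RPKM ± 13.4 and 76.2 RPKM ± 48.8 for Rps27 (SD, n = 3 each), and in replicate 3 of the KO it lay above Rps27, at 45.0 against 44.4 RPKM. Rpl3l, the form of Rpl3 in heart and skeletal muscle, and Rpl10l, the form of Rpl10 in testis, were at 0.0819 and 0.0877 RPKM in Wild-type, where Rpl3 had 146 and Rpl10 152 RPKM. Rps4l had 0 reads beside 171 RPKM of Rps4x. Rpl22l1, Rpl7l1 and Rpl36al, whose names lie outside the choice of members, had 65.6, 91.5 and 67.7 CPM of exon reads in Wild-type and 68.0, 92.5 and 72.2 CPM in Fam102a KO.

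Reads outside exons were concentrated in the members that carry snoRNA genes. Of the 78 tested members, 29 hold at least 1 annotated snoRNA gene on their strand, 56 in all. The median share of gene reads outside exons was 8.82% in these 29 and 0.544% in the other 49, and all 12 members above 20% carried a snoRNA gene. Rpl3 led with 65.3%, followed by Rpl6 with 52.2%, Rpl13a with 47.3%, Rpl17 with 44.7% and Rpl23 with 39.5%. Rpl13a, for example, holds Snord32a, Snord33, Snord34 and Snord35a. The rows of the 56 snoRNA genes themselves are listed at 0 gene reads in every library, so that reads from them and from the host gene around them cannot be told apart here. Some of these snoRNA genes, such as Snord33, lie wholly within annotated exons of the host, where a read would count as an exon read. Rpl12, Rpl13 and Rps13, whose 1 snoRNA gene lies so, had 0.0802, 0.0959 and 0.00408% of gene reads outside exons. Rpl6, whose 1 snoRNA gene also lies so, had 52.2%.

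The share outside exons differed between members more than between genotypes. For Rpl3 it was 63.9, 69.1 and 65.4% in Wild-type and 56.9, 68.7 and 62.5% in Fam102a KO. For Rpl39, which holds 1 snoRNA gene, it was 14.98, 30.6 and 36.2% against 12.3, 32.7 and 34.5%, with replicate 1 low in both genotypes. Over all members it was 13.6% ± 0.483 in Wild-type and 14.2% ± 1.31 in Fam102a KO (SD, n = 3 each). These ranges overlapped.

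Copies of the members took reads of their own in the tables. Of 291 rows named as -ps copies, 277 have no exon, and 5 could be tested. Rpl27-ps3 had 12110 exon reads over the 6 libraries, 8.60 times those of Rpl27 itself, and 0 of them were unique. Rpl10-ps3 had 16937, 0.533 times those of Rpl10, and Rps12-ps3 16178, 0.781 times those of Rps12. How the counting divided reads between a gene and its copy is not given in the sources used here, so the levels of Rpl27, Rpl10, Rps12, Rps27 and Rpl35 are uncertain. Rpl10-ps3 was higher in every KO library (log2 fold change 0.30, adjusted p = 0.703 from edgeR), and Rpl10 together with this copy came to 971 CPM ± 86.2 in Wild-type and 955 CPM ± 103 in Fam102a KO (SD, n = 3 each). Rpl9-ps6, the other copy higher at an unadjusted p under 0.05, had 0, 5 and 12 exon reads in Wild-type and 23, 37 and 17 in Fam102a KO.

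The ribosomal protein genes that lie outside the naming rule were not called either. Rps3a1 had 703, 648 and 658 CPM in Wild-type and 675, 650.2 and 581 CPM in Fam102a KO. Fau encodes a ribosomal protein fused to a ubiquitin-like protein. It had 60.9, 56.6 and 69.9 CPM against 59.2, 63.0 and 89.6 CPM, with replicate 3 of the KO highest and the groups overlapping. A wider list of 9 tested genes near the members is not limited to ribosomal proteins and includes Rps19bp1 and Rpl7l1. None of these passed an unadjusted p under 0.05 in edgeR in either direction.

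Other genes of ribosome production and its control were read beside the members, with no call at an adjusted p under 0.05 in any of these lists (edgeR). The shares of all genes at an unadjusted p under 0.05, 3.41% higher and 3.4% lower, apply to each count that follows. Of 22 translation factors with the same kind of messenger start, 1 was lower (Eif3f) and 0 were higher with an unadjusted p under 0.05, with a median log2 fold change of 0.09. Of 50 factors of ribosome assembly, 1 was higher (Fbl, which methylates ribosomal RNA) and 1 lower (Wdr12), with a median of 0.05. With uniquely placed reads, 23.2% of its exon reads, Fbl had a log2 fold change of 0.05 and no longer passed. Of 11 snoRNA hosts and noncoding genes with such a start, a list that includes Rack1, 0 were higher and 1 lower (Snhg5), with a median of 0.07. Snhg5, with 6.76% unique reads, also no longer passed on these (log2 fold change −0.22). Of 19 tested genes of the mTOR and Myc axis, 0 were higher and 1 lower (Max, the partner of Myc), with a median of 0.03. Of 77 mitochondrial ribosomal protein genes, 1 was higher (Mrpl47) and 0 lower, with a median of −0.05. Of 15 p53 targets, which include the member Rps27l, 3 were higher (Plk2, Cdkn1a and Eda2r) and 0 lower, with a median of 0.15. The replicate block gave 3 higher and 1 lower of these targets, the latter being Sesn1 (log2 fold change −0.51 without the block). Plk2 had 61.3, 60.8 and 66.3 CPM in Wild-type and 77.8, 81.9 and 82.4 CPM in Fam102a KO (log2 fold change 0.36, adjusted p = 0.398 from edgeR).

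For the 3466 genes with the shortest exon length, the median log2 fold change was −0.01, and for the 3465 with the highest counts 0.03, beside −0.03 for the members.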

How the data were processed

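cDNA was amplified from total RNA by the SMART-seq v4 method and read on an Ion Proton. The authors used CLC Genomics Workbench for mapping (mm10) and for counting. How reads with several matches were treated, whether strand was used, and which settings and annotation applied is not given in the sources used here. Read counts in the deposited tables cover each gene (gene, exon, intron and junction reads, all and uniquely placed), beside RPKM, which the authors scaled by gene reads.

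Exon reads were filtered with edgeR's filterByExpr (minimum count 10), which left 13858 genes, normalized by TMM, and compared with edgeR 4.0.16's robust quasi-likelihood test in R 4.3.3, with Benjamini-Hochberg adjustment over all genes. CPM are TMM-normalized. Unique exon reads were fitted likewise (12642 genes). Alternatives used DESeq2 1.42.0 and limma 3.58.1, the latter on log2(RPKM + 0.1) and log2(RPKM + 1). For single values, exact permutation tests were run. The members, lists and tests were chosen with earlier results of these data known. Junction reads, the block on unique reads and the sum of Rpl35 and Gm2000 were added after the values were seen. The named members are the 5 highest and lowest in level, in unique share and the 5 highest in intron share, those with the lowest p, the paralogues and a fixed set of well-studied genes. Some genes that this rule names are not reported here. Gene positions in the tables matched GENCODE M21 for 78 of 83 members.

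Libraries with the same replicate number deviated together from their group means (r = 0.334, 0.189 and 0.174 over 12460 genes), while those with different numbers gave r between −0.366 and 0.18. Nothing else pairs them. Exon reads numbered 5801394 to 9928262 per library, and precision is limited by the number of libraries, 3 for each genotype.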

Additional observations from a re-analysis of the deposited data

How the results depend on the processing

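Calls of members at an adjusted p under 0.05 stayed at 0 under 20 of 21 alternatives and were 1 (Rpl35) with no filter on low counts. At an unadjusted p under 0.05, 1 member was higher in the main test, and 3 on log2(RPKM + 0.1), 2 on log2(RPKM + 1) and 2 with the replicate block on unique reads, where 7.13, 7.05 and 5% of all genes were. The number lower was 0 in the main test, 1 with unique reads, 1 with no filter, 2 with the replicate block and 5 with the replicate block on unique reads, and it ranged from 0 to 3 when 1 library was left out, with 3 without Fam102a KO replicate 1. Of all genes, 3.6% were lower with unique reads, 2.94% with no filter, 4.7% with the block, 4.98% with the block on unique reads and 2.89% without that library. The replicate block changed no other call of a member. Over all genes, 11 calls became 326 with no filter, 120 with DESeq2, 4 without the robust fit, 7 and 4 on the RPKM scales, 42 with the replicate block, 51 with the block on unique reads, 0 with replicates 2 and 3 only, and 0 to 15 when 1 library was left out, with 0 without Wild-type replicate 2, Wild-type replicate 3 or Fam102a KO replicate 1, 2 without Wild-type replicate 1 and 7 without Fam102a KO replicate 2. The members' median log2 fold change was −0.03, 0.0902 on log2(RPKM + 0.1), 0.0895 on log2(RPKM + 1) and −0.0838 with the block on unique reads, and −0.0773 to 0.0047 when 1 library was left out. The members' share was 2.001% in Wild-type and 1.92% in Fam102a KO of unique exon reads, 5.17% in Wild-type without the row with the most reads, and 5.04 to 5.12% and 4.88 to 5.07% when 1 library was left out. The share of the members' exon reads placed uniquely ranged from 31.2 to 33.8% and 30.2 to 34.5% in the same way. Of 526 values for the 25 named members, 525 kept their side of the threshold, the exception being Rpl35 with no filter. Junction reads, the block on unique reads and the sum of Rpl35 and Gm2000 were chosen after seeing the data. The cause of these shifts was not tested. In members with few unique reads, the unique counts limit what can be seen: Rps6 had 17 to 35 such reads in a library.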

Other observations

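The 4 members on chromosome 2, where Fam102a also lies, were looked up after the values were seen. Rpl12 lies 0.392 Mb from Fam102a, Rpl7a 5.62 Mb, Rpl35 6.43 Mb and Rps21 148 Mb. Of the 230 genes tested within 10 Mb of Fam102a, 11 were higher in Fam102a KO and 4 were lower with an unadjusted p under 0.05 in edgeR, or 6.52%, against 6.80% of all genes.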
